A study of Homo sapiens with 24 samples.

Results

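The genes described here encode the machinery that licenses replication origins and copies DNA at the fork. They are 51 named genes of 19775 genes that had a probe set of their own on the array, grouped into 11 complexes or classes. These are the origin recognition complex (ORC), licensing factors, the MCM helicase subunits, helicase activation, GINS, polymerases and primase, the sliding clamp and its loader, RPA, Okazaki fragment maturation, fork protection and chromatin assembly. For each gene the probe set that names it alone and had the highest mean log2 signal over the 24 arrays was taken, and every member gave one above the median log2 signal of all probe sets, 6.13. No member was lost to a filter.

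The study profiled 2 human acute myeloid leukemia cell lines with an internal tandem duplication of the receptor kinase FLT3 (FLT3-ITD) on Affymetrix U133 Plus 2.0 arrays. MV4-11 carries the mutated allele alone, and MOLM-14 carries a wild-type allele beside it. Each line received DMSO as the control, 3 nM ABT-869 (an inhibitor of FLT3 and other receptor tyrosine kinases), 6 µM SAHA (a histone deacetylase inhibitor) or both compounds together, for 24 hours. The labels do not restate the doses within the combination, and they name 3 biological replicates in each of the 8 groups. Each genotype is represented by 1 line, so line and FLT3 genotype cannot be told apart. The study asked which expression changes accompany the joint action of the 2 compounds.

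Origins are licensed when ORC, CDC6 and CDT1 load the MCM2 to MCM7 ring onto DNA, a step that geminin blocks once S phase has begun. The kinase CDC7 with its partner DBF4, together with MCM10, CDC45 and GINS, then turns the loaded ring into an active helicase, and polymerases alpha, delta and epsilon, PCNA, its loader RFC, RPA, FEN1 and LIG1 copy and join the strands behind it. Many of these genes are known targets of E2F transcription factors, whose output rises as proliferating cells pass from G1 into S phase.

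The promoter windows of 45 members were at hand in RefSeq (build GRCh38.p14), each covering 250 bases before and 50 after an annotated start. They were searched on both strands for the core letters bound by E2F factors, in the 4 forms TTTCCCGC, TTTCGCGC, TTTGCCGC and TTTGGCGC, with overlapping matches counted. At least 1 window held them for 22 of the 45 members (48.9%), compared with 824 of 15384 measured genes (5.36%). Counted by window, 22 of 58 windows of members (37.9%) and 1164 of all 35116 windows (3.31%) held them. The stretches below are shown because they come from a licensing factor, an MCM subunit, a GINS subunit, a polymerase, the clamp and the ligase, all of which fell with the combination in MOLM-14. Capitals mark the E2F letters and all stretches lie upstream of the annotated start, read 5′ to 3′ along the gene.
CDT1, chr16:88803734-88803781, plus strand: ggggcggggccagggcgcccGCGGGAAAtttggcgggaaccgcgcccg
MCM6, chr2:135876502-135876615, minus strand: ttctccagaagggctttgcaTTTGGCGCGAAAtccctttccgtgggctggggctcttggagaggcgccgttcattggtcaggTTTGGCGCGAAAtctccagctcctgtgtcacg
GINS2, chr16:85688958-85689005, minus strand: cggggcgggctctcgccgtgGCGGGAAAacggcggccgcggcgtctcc
POLE, chr12:132687343-132687380, minus strand: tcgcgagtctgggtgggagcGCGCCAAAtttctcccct
PCNA, chr20:5126654-5126701, minus strand: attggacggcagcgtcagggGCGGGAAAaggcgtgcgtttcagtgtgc
LIG1, chr19:48170431-48170478, minus strand: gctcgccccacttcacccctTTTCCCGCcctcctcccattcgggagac
In MCM6 each marked run holds 2 overlapping matches, 1 on each strand, which makes 4 in the window. The other 5 stretches hold 1 match each.

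The labelled cell type was checked against myeloid markers, of which 7 of 8 had a probe set. FLT3 (signal 10511 to 16736), LYZ (lysozyme, 10939 to 18698), PTPRC (4197 to 7345), ITGAM (935 to 2353) and MPO (210.6 to 3109) were measured on every array, while CD14 (4.1 to 54.6) and ANPEP (1.9 to 57.5) stayed dim. Of the markers of other cell types, 4 of 6 had a probe set: CD3E ranged from 44.8 to 139, MS4A1 from 8.4 to 97.2, EPCAM from 1.6 to 48.1 and COL1A1, by a probe set that may cross-hybridise, from 227.5 to 579.5. None of these 4 passed the limma test in any comparison between groups. MPO (myeloperoxidase) and ITGAM moved with the SAHA groups of MOLM-14: their log2 changes were -2.74 and 1.0 with SAHA and -2.87 and 0.91 with the combination, while the other 5 measured myeloid markers did not pass there. In MV4-11 the log2 changes with the combination were -0.90 for MPO, -0.49 for PTPRC and 0.53 for LYZ, with SAHA 0.84 for ITGAM, and with ABT-869 1.06 for MPO. Their part in the changes below was not tested. In RNA of whole cultures, fewer cells of a type (such as cells in S phase) and less RNA per cell cannot be told apart.

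With the combination, RNA signals of most members fell in MOLM-14. Of the 51 members, 39 fell and 0 rose (limma, adjusted p below 0.05), compared with 2.8% of all probe sets called lower and 3.15% called higher. The median log2 change of the members was -1.19, beside 0.03 over all probe sets, and 31 members fell by at least 2-fold, compared with 0.784% of all probe sets. All 3 combination arrays lay below all 3 DMSO arrays for 47 members, an arrangement seen in 11.7% of all probe sets. The 12 members that did not pass were ORC2, ORC3, ORC4, ORC5, DBF4, GINS4, PRIM1, PRIM2, POLE3, RFC1, RPA1 and RPA3. Changes ran from -2.43 for CDC45 to 0.31 for ORC4.

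SAHA alone gave 34 lower and 0 higher members in MOLM-14, compared with 2.58% and 2.74% of all probe sets. The median log2 change was -0.92, against -0.14 over all probe sets, and 19 members fell by at least 2-fold, compared with 0.905% of all probe sets. All 3 SAHA arrays lay below all 3 DMSO arrays for 42 members, compared with 16.9% of all probe sets. All 34 also fell with the combination, as did 5 that did not pass with SAHA alone: GMNN, CDC45, POLD2, RPA2 and FEN1. These 2 comparisons share the DMSO arrays, and no share of all probe sets was taken for their overlap. When the combination was compared directly with SAHA in MOLM-14, 0 members passed (0.00549% of all probe sets lower, 0.00916% higher). The count with SAHA alone was smaller when 1 array was left out: it was 17 without DMSO replicate 1, 14 without DMSO replicate 2, 15 without SAHA replicate 2 and 17 without SAHA replicate 3. Each of these fits also had fewer arrays, and the part of this in the lost calls was not tested. Of the members given array by array below, the SAHA calls of MCM6, GINS2, POLE, RFC2, LIG1, CLSPN, TIPIN, CHAF1A and CHAF1B were each lost in at least 2 of the 12 fits that left out 1 MOLM-14 array.

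MV4-11 showed a smaller and mixed set of changes. With the combination 10 members fell and 2 rose, compared with 4.05% and 4.89% of all probe sets. The median log2 change was -0.27, against -0.02 over all probe sets. All 3 combination arrays lay below all 3 DMSO arrays for 28 members, compared with 14.1% of all probe sets. The lower members were ORC1, PRIM1, CDT1, CDC45, TIMELESS, RFC4, LIG1, MCM7, MCM2 and RFC5, of which ORC1, PRIM1 and CDT1 fell by at least 2-fold (1.65% of all probe sets), and the higher ones were ORC5 and RPA1. With each array centred on its median the split was 6 lower and 0 higher. Without DMSO replicate 1, 2 or 3 the lower count was 5, 6 and 6. It was larger in other settings: 17 with signals under 32 raised to 32, 18 (and 5 higher) with dim probe sets left out and 17 (and 5 higher) with limma-trend. Shares of all probe sets were not taken in these alternative settings. SAHA alone lowered 3 members (ORC1, PRIM1 and RFC4) and raised 1 (RPA1), compared with 0.996% and 1.47% of all probe sets, and its median log2 change was -0.12.

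With ABT-869 alone the count of members that passed depended on the setting in MV4-11. There GINS3 was the 1 member called higher and 0 were lower, compared with 0.372% and 0.491% of all probe sets. At an unadjusted p below 0.05, 17 members were higher and 3 lower there, and the median log2 change was 0.20, beside 0.05 over all probe sets. No share of all probe sets was taken at an unadjusted p in either line. The counts were 14 higher and 2 lower with signals under 32 raised to 32, 13 and 1 with dim probe sets left out, 13 and 2 with limma-trend and 6 and 1 in a single fit over all 24 arrays. For these settings the shares of all probe sets were not taken. In MOLM-14, 0 members were called in either direction by limma, compared with 0.00183% of all probe sets higher and 0.0146% lower, and 1 in each direction had an unadjusted p below 0.05.

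**Figure D1:**
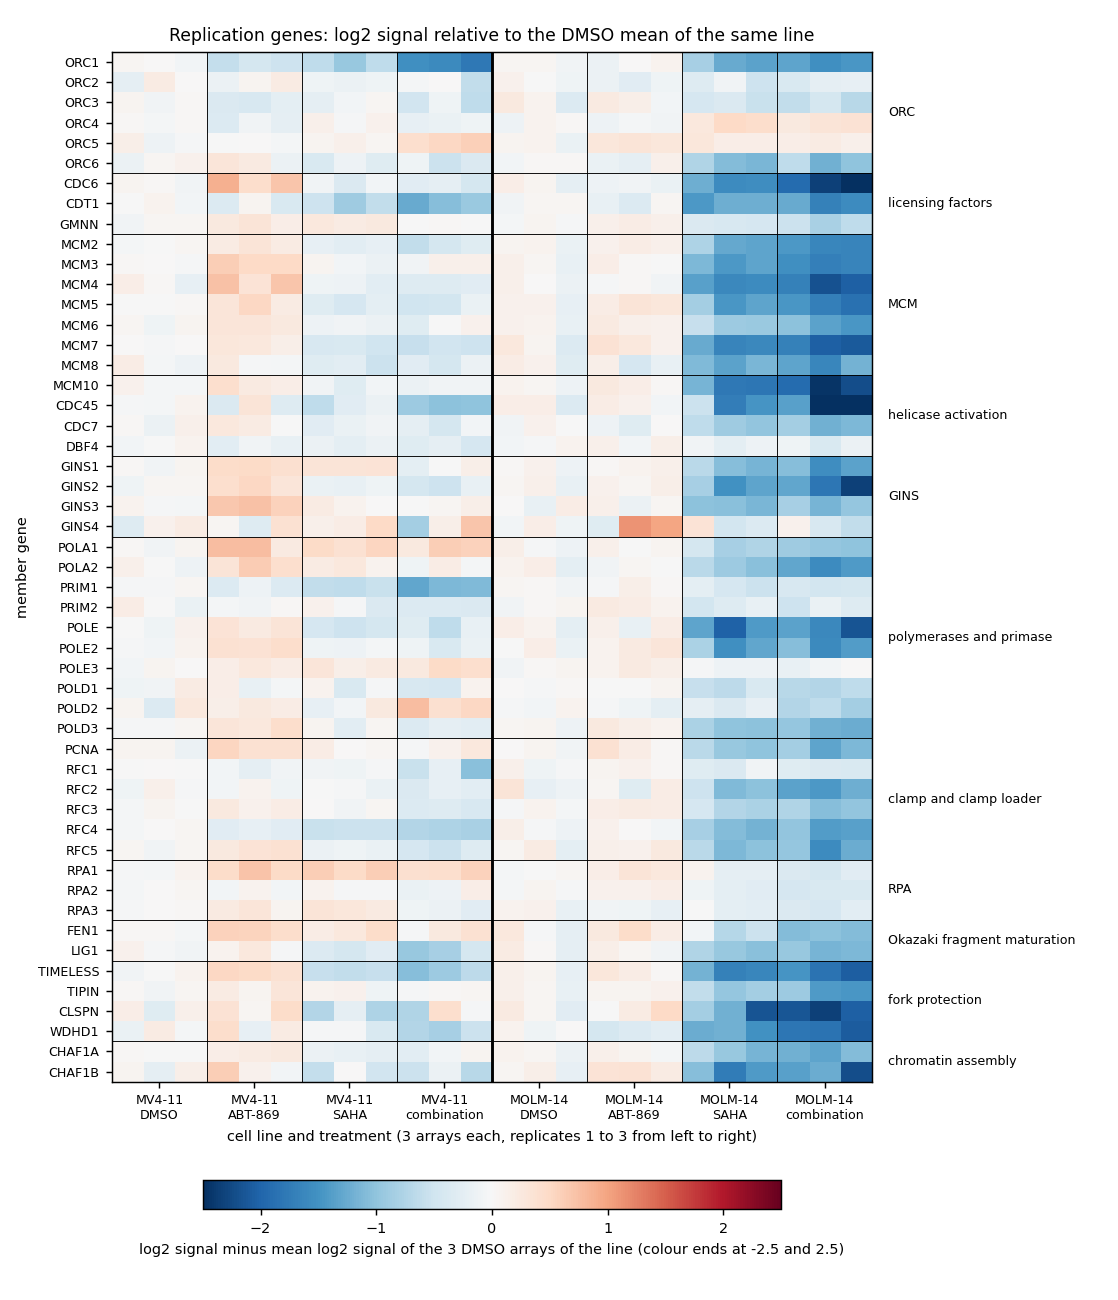
Log2 signal of each of the 51 members (rows, grouped by complex) on each of the 24 arrays (columns, 3 per line and treatment) minus the mean log2 signal of the 3 DMSO arrays of the same line, with blue below and red above that mean. The member medians of the 3 combination arrays of MOLM-14 were -0.97, -1.31 and -1.18, and those of the 3 combination arrays of MV4-11 were -0.31, -0.21 and -0.19.

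In the map of the members on each array the medians were alike within a group, while single members such as GINS4 differed between arrays of a group. The medians of the 3 MOLM-14 arrays treated with SAHA were -0.67, -0.97 and -1.03 relative to the DMSO mean on the log2 scale, and those of the MOLM-14 DMSO arrays were 0.08, 0.07 and -0.13. The MOLM-14 arrays of replicate 1 were the least lowered of their group under both SAHA and the combination. In MV4-11 the ABT-869 arrays lay slightly above DMSO, at 0.24, 0.23 and 0.19.

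Among the DMSO controls, RNA signals of most members were higher in MOLM-14. In DMSO, 29 members were higher in MOLM-14 than in MV4-11 and 0 were lower, compared with 4.96% and 5.18% of all probe sets. The median log2 difference was 0.52, against -0.15 over all probe sets. The 5 members called and at least 2-fold higher (0.656% of all probe sets) were FEN1 (1.28), POLA1 (1.17), GINS3 (1.12), GINS1 (1.01) and POLA2 (1.01). With the second probe set of each gene where it had one, 18 members were higher and 1 was lower. Members at like levels in both lines by their point estimate included ORC1 (0.03), ORC5 (0.00), CDT1 (0.05), POLD1 (-0.03), RFC1 (-0.03) and RFC4 (0.00).

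The ORC subunits, which mark origins and load the helicase, did not move as a block. ORC1, the largest subunit and one whose level is known to follow the cell cycle, fell with every treatment that contained SAHA in both lines. Its signal in MV4-11 was 1522, 1483 and 1388 in DMSO, 967, 1078 and 1021 with ABT-869, 941, 759 and 943 with SAHA, and 503, 483 and 425 with the combination. In MOLM-14 it was 1540, 1538 and 1412 in DMSO, 1355, 1501 and 1597 with ABT-869, 840, 621 and 595 with SAHA, and 599, 515 and 544 with the combination. No SAHA or combination array reached any DMSO array of its line, and in MV4-11 the combination arrays were lower than every array of the other treatments. The log2 change with the combination was -1.64 ± 0.132 (SE, n = 3 against 3, adjusted p = 0.000286) in MV4-11 and -1.44 ± 0.150 (adjusted p = 0.00317) in MOLM-14. With SAHA alone the change in MV4-11 was -0.74 (adjusted p = 0.0238), and that call was lost with each array centred on its median (0.0965) and when any 1 of the 3 DMSO or 3 SAHA arrays was left out (0.0601 to 0.0877). ORC1 is on the study's own list of genes with at least a 2-fold change that were unique to the combination in both lines. That list was drawn from these arrays, so the fall of ORC1 here is not independent evidence. The study also reported that quantitative PCR bore out the change of ORC1 in mRNA. In MOLM-14 the mean signal here was 1496 in DMSO and 685 with SAHA alone, a fall of over 2-fold without ABT-869.

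ORC6 was the other subunit that fell in MOLM-14, by 0.95 on the log2 scale with the combination (adjusted p = 0.0168) and 0.99 with SAHA (adjusted p = 0.0171). Its probe set is of a kind that may cross-hybridise to related transcripts. ORC2 and ORC3 had log2 changes of -0.27 and -0.58 with the combination and did not pass. ORC4 lay above DMSO on all 3 arrays: its MOLM-14 signal was 1136, 1316 and 1267 in DMSO, 1477, 1744 and 1671 with SAHA, and 1470, 1551 and 1593 with the combination. These groups did not overlap, yet neither change passed (0.39, adjusted p = 0.0734, and 0.31, adjusted p = 0.151). ORC5 rose in MV4-11 with the combination, from 894, 739 and 792 to 1075, 1160 and 1211, a log2 change of 0.51 ± 0.115 (adjusted p = 0.0256). Its second probe set changed by 0.27 (adjusted p = 0.355). The ORC5 call in MV4-11 did not hold when DMSO replicate 2 or 3, or combination replicate 2 or 3, was left out, and there the adjusted p ran from 0.0674 to 0.0967.

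The licensing factors all fell in MOLM-14 with the combination, and CDT1 alone of the 3 passed in MV4-11. CDC6, the ATPase that joins ORC to load MCM, had MOLM-14 signals of 1636, 1546 and 1249 in DMSO, 1348, 1385 and 1310 with ABT-869, 628, 493 and 503 with SAHA, and 389, 290 and 253 with the combination. In MV4-11 they were 783, 763 and 708, then 1395, 1022 and 1208, then 703, 582 and 717, and with the combination 614, 639 and 554. The combination took CDC6 to its lowest level of the 8 groups in MOLM-14, while in MV4-11 the highest group was ABT-869. The log2 change with the combination was -2.26 ± 0.183 in MOLM-14 (adjusted p = 0.00204) and -0.32 ± 0.150 in MV4-11 (adjusted p = 0.247), and the difference between the lines passed its own test (-1.94 ± 0.228, adjusted p = 7.3e-05).

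CDT1, which brings the MCM ring to ORC and CDC6, fell in both lines with the combination, by 1.51 on the log2 scale in MOLM-14 (adjusted p = 0.00312) and 1.09 in MV4-11 (adjusted p = 0.00488). The difference between these responses was -0.42 (adjusted p = 0.33). GMNN encodes geminin, the inhibitor of CDT1. Its signal in MOLM-14 was 6516, 7104 and 6590 in DMSO and 4647, 3853 and 4331 with the combination, a log2 change of -0.66 ± 0.105 (adjusted p = 0.00915). In MV4-11 it was 3802, 4157 and 4143 in DMSO and 4004, 4121 and 4020 with the combination, where the groups overlapped. The line difference for GMNN was -0.67 ± 0.124 (adjusted p = 0.00283).

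All 7 genes of the MCM class (MCM2 to MCM8) fell in MOLM-14, both with SAHA (log2 changes of -1.52 to -0.80) and with the combination (-1.96 to -1.27). MCM8 is not part of the replicative ring of MCM2 to MCM7. MCM4 moved most: its MOLM-14 signal was 8616, 7951 and 7050 in DMSO, 7650, 7986 and 7392 with ABT-869, 3047, 2559 and 2628 with SAHA, and 2442, 1742 and 1917 with the combination. The log2 change was -1.96 ± 0.150 (adjusted p = 0.00201), and 4 bright probe sets of this gene gave -1.96, -2.28, -2.72 and -1.88. In MV4-11 the MCM4 signal was 5891, 5341 and 4514 in DMSO, 8710, 6613 and 8383 with ABT-869, and 4180, 4188 and 4269 with the combination. The combination arrays lay below every DMSO array of MV4-11, but the change of -0.31 did not pass (adjusted p = 0.261).

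MCM6, whose promoter stretch holds 4 E2F matches, moved least among the 7. Its MOLM-14 signal was 10559, 10477 and 8676 in DMSO, 6592, 5288 and 5171 with SAHA, and 4825, 3910 and 3593 with the combination, with no overlap between DMSO and either treatment. The log2 changes were -0.80 ± 0.155 (adjusted p = 0.0215) and -1.27 ± 0.155 (adjusted p = 0.00413). In MV4-11 it was 7291, 6564 and 7383 in DMSO and 5711, 7060 and 7652 with the combination, and these groups overlapped. Of the 7, MCM7 (-0.52, adjusted p = 0.0146) and MCM2 (-0.45, adjusted p = 0.0432) fell in MV4-11 with the combination. The response to the combination was lower in MOLM-14 for all 7 MCM genes by the test of the difference, from -1.69 for MCM3 to -1.09 for MCM8.

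Of the genes that switch the helicase on, CDC45, an integral part of the active helicase, had the lowest fitted change of the members in MOLM-14 with all arrays kept. Its MOLM-14 signal was 895, 900 and 633 in DMSO, 551, 243 and 290 with SAHA, and 312, 79.7 and 131 with the combination. The value of 79.7, on combination replicate 2, sat near the median signal of all probe sets on that array (78.9). No detection call was used, so the size of the change is uncertain. The 3 combination arrays were far apart and yet all below DMSO, and the standard error was the largest of the 51 members in MOLM-14: -2.43 ± 0.471 (adjusted p = 0.0187). The call was lost when DMSO replicate 1 or 2 was left out (adjusted p = 0.0716 and 0.0729), and likewise for combination replicate 2 or 3 (0.0579 and 0.0689). Without combination replicate 2 the change was -1.98, which is no longer below those of CDC6, MCM10 and CLSPN with all arrays kept. In MV4-11 the signal fell from 693, 687 and 758 to 380, 347 and 353, with no overlap and a log2 change of -0.98 ± 0.203 (adjusted p = 0.0176). The difference between lines did not pass (-1.45 ± 0.522, adjusted p = 0.123). The MV4-11 call was lost, with adjusted p from 0.0508 to 0.0622, when any 1 of the 3 DMSO arrays or combination replicate 2 or 3 was left out.

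MCM10, which helps to activate the helicase, fell by 2.20 on the log2 scale in MOLM-14 with the combination (adjusted p = 0.00254) and changed by -0.10 in MV4-11 (adjusted p = 0.686). Its line difference of -2.10 (adjusted p = 3.05e-05) was the lowest among the members. CDC7 fell by 1.06 in MOLM-14 (adjusted p = 0.00601), whereas its activator DBF4 did not pass in either line. The DBF4 signal was 2466, 2532 and 2754 in DMSO and 2411, 1990 and 2322 with the combination in MOLM-14, and 1676, 1739 and 1876 against 1424, 1503 and 1320 in MV4-11. Both lines had every combination array below every DMSO array, by a small margin (-0.21 and -0.32).

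The GINS complex joins CDC45 and MCM in the active helicase, and 3 of its 4 genes fell in MOLM-14 with each SAHA treatment. GINS2 had MOLM-14 signals of 1783, 1874 and 1517 in DMSO, 1857, 1766 and 1912 with ABT-869, 966, 603 and 686 with SAHA, and 695, 491 and 340 with the combination. Its log2 change with the combination was -1.82 ± 0.260 (adjusted p = 0.00669) in MOLM-14. In MV4-11 the signal was 1023, 1135 and 1137 in DMSO and 809, 769 and 959 with the combination, a change of -0.38 that did not pass (adjusted p = 0.101). The second, dimmer GINS2 probe set gave -1.58 in MOLM-14 and did not pass (adjusted p = 0.305).

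GINS3 was the member called higher with ABT-869 in MV4-11, although the change of CDC6 there (0.68, adjusted p = 0.0869) was as large. The GINS3 signal was 434, 400 and 395 in DMSO, 654, 684 and 610 with ABT-869, 473, 432 and 412 with SAHA, and 406, 426 and 454 with the combination. The ABT-869 arrays lay above all the other MV4-11 arrays, with a log2 change of 0.66 ± 0.114 (adjusted p = 0.0368). The call was lost in 11 of the 12 fits that left out 1 MV4-11 array (all but combination replicate 3) and with the gene's second probe set (0.21, adjusted p = 0.554). In MOLM-14 GINS3 fell from 897, 780 and 1009 to 498, 401 and 456 with the combination (-0.99, adjusted p = 0.00638) and to 437, 432 and 405 with SAHA (-1.07, adjusted p = 0.007). GINS1 fell there by 1.32. GINS4 varied widely within groups, at 410, 485 and 401 in MOLM-14 DMSO, 349, 935 and 858 with ABT-869 and 463, 325 and 280 with the combination, and it passed in no comparison with DMSO.

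**Figure D2:**
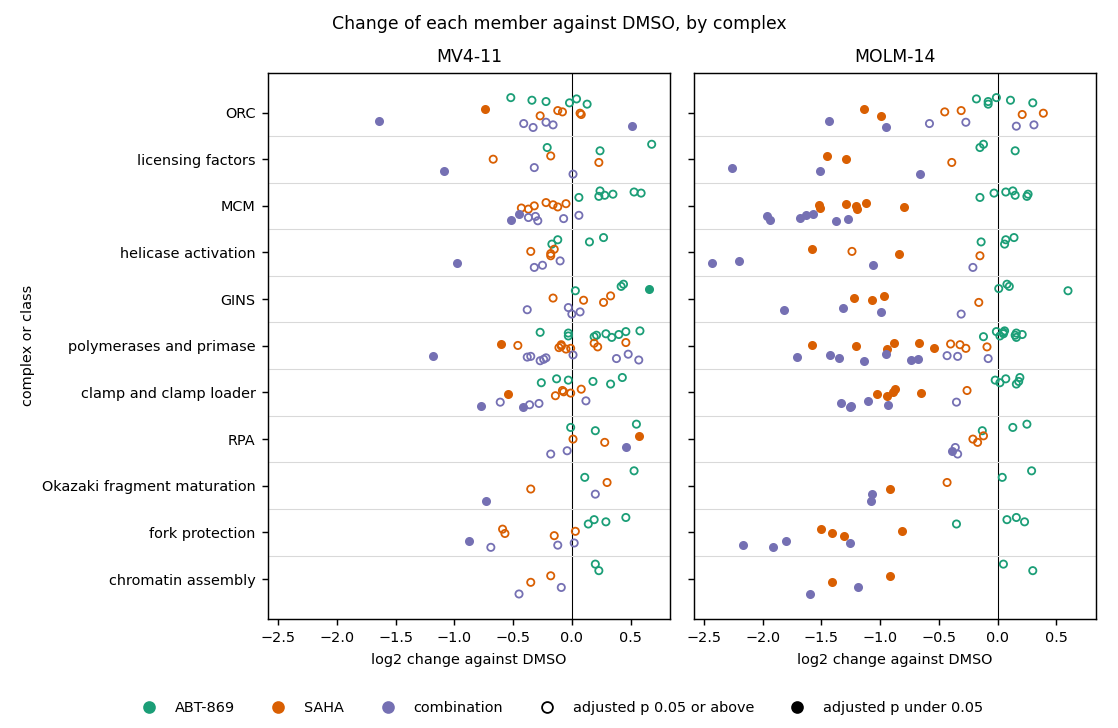
Log2 change of each member against DMSO (horizontal axis) by complex or class (vertical axis) in MV4-11 (left) and MOLM-14 (right), coloured by treatment, filled where the adjusted p was below 0.05. In MOLM-14 all 7 MCM, all 4 fork protection and all 3 licensing genes were filled for the combination, whereas 2 of 6 ORC and 1 of 3 RPA genes were.

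Among the 10 polymerase and primase genes, 7 fell in MOLM-14 with the combination and 6 with SAHA. POLE, the catalytic subunit of the leading strand polymerase epsilon, had MOLM-14 signals of 1089, 1031 and 816 in DMSO, 1060, 857 and 1110 with ABT-869, 390, 240 and 364 with SAHA, and 384, 317 and 217 with the combination. Both SAHA groups lay below every DMSO array, at log2 changes of -1.58 ± 0.257 (adjusted p = 0.0129) and -1.71 ± 0.257 (adjusted p = 0.00775). In MV4-11 the POLE signal was 738, 689 and 797 in DMSO and 597, 480 and 648 with the combination (-0.38, adjusted p = 0.133). POLE2, the second epsilon subunit, fell by 1.35 in MOLM-14, while POLE3, a histone-fold subunit also found in a chromatin remodeller, had DMSO signals of 5407, 5841 and 6013 against 5045, 5484 and 5822 with the combination, which overlapped (-0.08, adjusted p = 0.776). For the delta subunits POLD1, POLD2 and POLD3 the log2 changes in MOLM-14 were -0.68, -0.74 and -1.14, and all 3 passed.

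The polymerase alpha and primase genes split. POLA1 and POLA2, the polymerase subunits, fell in MOLM-14 by 0.95 and 1.43. PRIM1, the catalytic primase subunit, changed more in MV4-11 than in MOLM-14 with the combination, in the same direction, and is named here because of its values. In MV4-11 its signal was 6725, 6768 and 7098 in DMSO, 5411, 6272 and 5404 with ABT-869, 4471, 4392 and 4693 with SAHA, and 2785, 3147 and 3197 with the combination, with no overlap between DMSO, SAHA and the combination. In MOLM-14 it was 6385, 6331 and 5796 in DMSO, 6061, 6863 and 6310 with ABT-869, 5182, 4579 and 4274 with SAHA, and 4696, 4500 and 4553 with the combination. There, too, every SAHA and combination array lay below every DMSO array. The log2 change with the combination was -1.18 ± 0.116 in MV4-11 (adjusted p = 0.000685) and -0.43 ± 0.111 in MOLM-14 (adjusted p = 0.0575), and the difference of 0.75 ± 0.140 passed (adjusted p = 0.00293). PRIM2, the regulatory primase subunit, did not pass in either line, and further probe sets that it shares with the near-identical PRIM2BP were left out.

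PCNA, the clamp that tethers polymerases, fell in MOLM-14 by 0.87 with SAHA (adjusted p = 0.0176) and 1.10 with the combination (adjusted p = 0.00674) and changed by 0.12 in MV4-11 with the combination. Of the 5 RFC genes, which load the clamp, 4 fell in MOLM-14 with each SAHA treatment. RFC2, a small subunit, had MOLM-14 signals of 2350, 1626 and 1701 in DMSO, 1298, 865 and 918 with SAHA, and 743, 694 and 800 with the combination. The combination arrays were the lowest and the closest together, with a log2 change of -1.33 ± 0.211 (adjusted p = 0.00922). In MV4-11 the RFC2 signal was 1414, 1668 and 1500 in DMSO and 1187, 1326 and 1267 with the combination, which did not overlap but did not pass (-0.28, adjusted p = 0.215). RFC1, the large subunit, was 2187, 1855 and 1954 in MOLM-14 DMSO and 1609, 1554 and 1538 with the combination (-0.35, adjusted p = 0.12), without overlap. Its MV4-11 combination arrays ranged from 986 to 1759, and the change of -0.61 did not pass (adjusted p = 0.083). RFC4 and RFC5 fell in both lines.

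RPA, the complex that coats single-stranded DNA, had the class median nearest to 0 in MOLM-14 with the combination, -0.36, followed by ORC at -0.42. The RPA2 signal was 2729, 2973 and 2786 in DMSO and 2102, 2172 and 2178 with the combination, a log2 change of -0.39 ± 0.0969 (adjusted p = 0.0465). RPA3 was 5970, 5976 and 4878 in DMSO and 4356, 4182 and 4682 with the combination (-0.34, adjusted p = 0.168). For both genes the groups did not overlap, and the RPA2 call was lost in all 12 fits that left out 1 MOLM-14 array. RPA1, the large subunit, rose in MV4-11: 3021, 2977 and 3299 in DMSO, 4263, 5097 and 4311 with ABT-869, 4714, 4340 and 4754 with SAHA, and 4060, 4118 and 4622 with the combination. Every treated array lay above every DMSO array, and SAHA and the combination passed (0.57, adjusted p = 0.0477, and 0.46, adjusted p = 0.0489). In MOLM-14 RPA1 was 5669, 5817 and 6086 in DMSO and 4554, 4344 and 4795 with the combination (-0.36, adjusted p = 0.129). The second RPA1 probe set gave 0.33 (adjusted p = 0.259) and 0.11 (adjusted p = 0.678) in MV4-11, and in MOLM-14 it fell by 0.66 with the combination (adjusted p = 0.0121). The SAHA and combination calls of RPA1 were lost in 10 and 11 of the 12 fits that left out 1 MV4-11 array.

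FEN1 trims and LIG1 joins Okazaki fragments, and both fell in MOLM-14 with the combination. LIG1 was 2081, 1835 and 1547 in DMSO, 1068, 935 and 875 with SAHA, and 942, 804 and 827 with the combination, with a log2 change of -1.08 ± 0.146 (adjusted p = 0.00563). In MV4-11 LIG1 fell from 1781, 1608 and 1551 to 855, 930 and 1216 (-0.73 ± 0.156, adjusted p = 0.0202). The LIG1 groups did not overlap in either line, and the MV4-11 call was lost when replicate 1 or 2 of either DMSO or the combination was left out. FEN1 was 6557, 5377 and 4667 in MOLM-14 DMSO, 5254, 3352 and 3788 with SAHA, where the groups overlapped, and 2574, 2680 and 2591 with the combination (-1.07 ± 0.188, adjusted p = 0.0132). In MV4-11 it was 2290, 2304 and 2164 in DMSO and 2198, 2672 and 2928 with the combination, and the line difference of -1.26 passed (adjusted p = 0.00192). The FEN1 call in MOLM-14 was lost when DMSO replicate 1 or 2 was left out (adjusted p = 0.0527 and 0.0517), and likewise for combination replicate 3 (0.0504).

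The fork protection genes, which hold the helicase and polymerases together and relay checkpoint signals, all fell in MOLM-14 under both SAHA treatments, and their median of -1.85 with the combination was the lowest of the 11 classes. CLSPN (claspin) was 387, 343 and 270 in DMSO, 330, 381 and 464 with ABT-869, 182, 143 and 73.9 with SAHA, and 74.8, 65.6 and 79.8 with the combination. All 3 combination arrays lay below DMSO, at a fitted log2 change of -2.17 ± 0.308 (adjusted p = 0.00639). They sat at the median signal of all probe sets on those arrays (75 to 80.6) and no detection call was used here, so the size of the change is uncertain. In MV4-11 CLSPN was 242, 173 and 235 in DMSO and 128, 286 and 210 with the combination, which overlapped (-0.12). TIPIN fell from 1413, 1340 and 1134 to 691, 484 and 471 in MOLM-14 (-1.26, adjusted p = 0.0058), and was 722, 661 and 732 against 692, 723 and 728 in MV4-11 (0.02). Its partner TIMELESS fell in both lines, by 1.80 in MOLM-14 and 0.88 in MV4-11. WDHD1, which links the helicase to polymerase alpha, fell by 1.91 in MOLM-14 (adjusted p = 0.00136).

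CHAF1A and CHAF1B, subunits of the factor that deposits histones behind the fork, also fell in MOLM-14. CHAF1B was 446, 475 and 373 in DMSO, 206, 128 and 161 with SAHA, and 168, 182 and 92.7 with the combination (-1.60 ± 0.266, adjusted p = 0.0107). CHAF1A was 1778, 1737 and 1514 in DMSO, 1065, 864 and 749 with SAHA, and 729, 673 and 794 with the combination (-1.19 ± 0.148, adjusted p = 0.00446). Neither gene overlapped with DMSO there. In MV4-11 the combination arrays overlapped with DMSO for both: CHAF1B was 298, 245 and 315 against 197, 258 and 177, and CHAF1A was 1183, 1163 and 1153 against 967, 1110 and 1218.

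**Figure D3:**
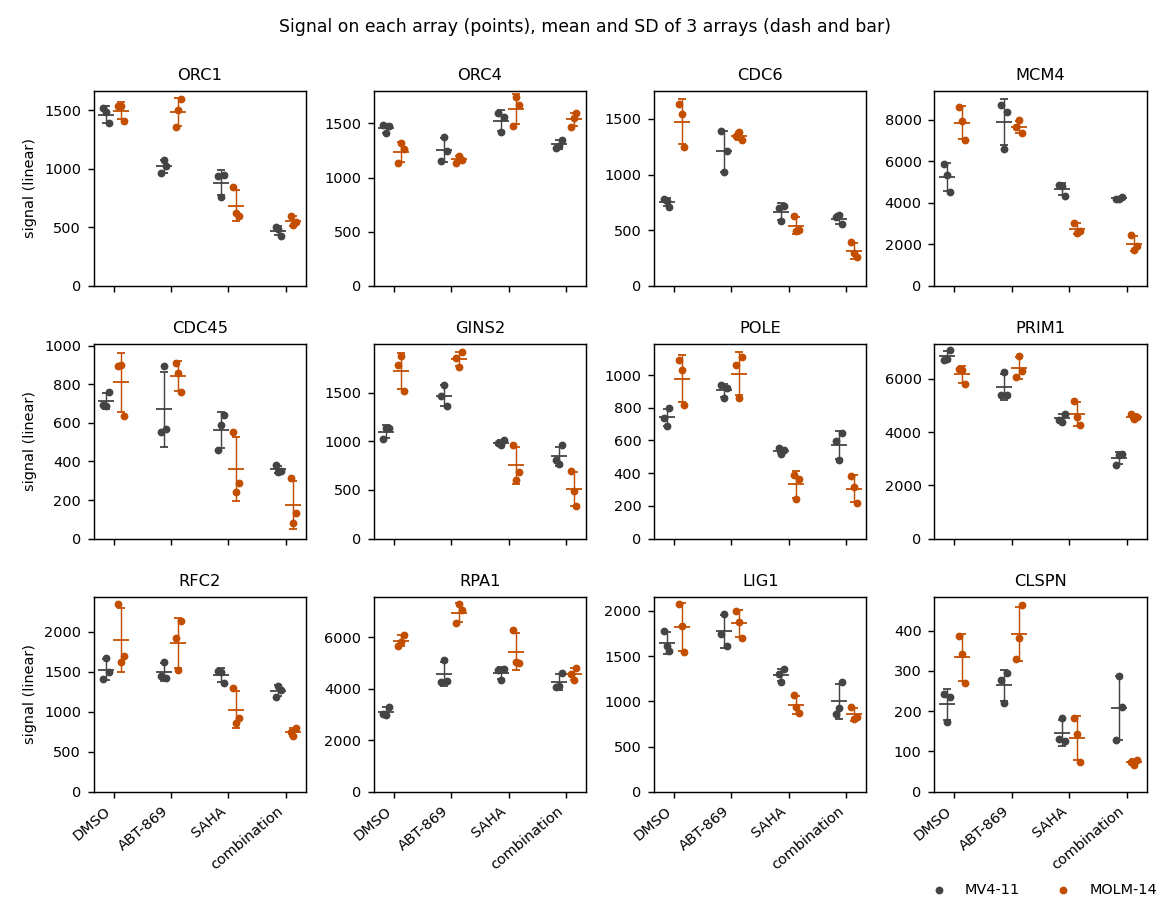
Linear signal (vertical axis, starting at 0) of 12 members on each array by treatment (horizontal axis), with MV4-11 in grey and MOLM-14 in orange, points for arrays and a dash and bar for the mean and SD of 3 arrays. The mean of ORC1 was lowest with the combination in both lines, CDC6 and MCM4 fell in MOLM-14 with SAHA and the combination, PRIM1 fell in MV4-11 with both, and RPA1 rose in MV4-11 with both.

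The 2 compounds were also compared step by step. ABT-869 added to SAHA lowered 1 member in MV4-11, ORC1 (-0.90, adjusted p = 0.0221), and raised 0, compared with 0.566% and 0.183% of all probe sets. The lower count was 0 with centring and 0 without DMSO replicate 2, SAHA replicate 1 or 3 or any 1 of the 3 combination arrays, and it was 7 with signals under 32 raised to 32 and 4 with limma-trend or with dim probe sets left out. Under these alternatives no share of all probe sets was taken. In MOLM-14, 0 members passed by limma in either direction (0.00549% of all probe sets lower, 0.00916% higher). At an unadjusted p below 0.05, 16 members were lower and 0 higher there, with no share of all probe sets taken at that p. The median of -0.24 lay beside 0.11 over all probe sets, and CDC45 (-1.19, adjusted p = 0.474) and CDC6 (-0.81, adjusted p = 0.219) had the lowest changes. SAHA added to ABT-869 lowered 43 members in MOLM-14 (3.54% of all probe sets lower) and raised 0 (4.48% higher), with a median of -1.29. In MV4-11 it lowered 18 (1.81%) and raised 1, ORC5 (1.89%), with a median of -0.45. This MV4-11 count was 8, 10 and 7 without ABT-869 replicate 1, 2 and 3, and 9 without combination replicate 1 or 2.

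Departure from additivity is the combination's log2 change minus the sum of those of the single compounds. By limma, 0 members passed in either line and direction, compared with 0.00732% lower and 0.0146% higher of all probe sets in MV4-11 and 0.00183% and 0.011% in MOLM-14. At an unadjusted p below 0.05, 19 members were lower and 1 higher in MV4-11, and 14 were lower and 0 higher in MOLM-14. In MV4-11 the count of lower members was 7 with signals under 32 raised to 32, 4 with dim probe sets left out and 9 with limma-trend. No share of all probe sets was taken at the unadjusted p or in these settings. The medians were -0.33 and -0.35, and -0.02 and 0.10 over all probe sets. The lowest in MV4-11 was CDC6 (-0.82, adjusted p = 0.289), which ABT-869 alone had left above DMSO.

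The lines differed in their response to the combination by a test of the difference itself. The response was lower in MOLM-14 for 32 members and higher for 2, ORC4 (0.47, adjusted p = 0.0478) and PRIM1, compared with 3.41% and 3.14% of all probe sets. The count of 2 higher was 1 in 21 of 24 fits that left out 1 array and 0 with centring. The median difference was -1.05, beside 0.04 over all probe sets. The members that fell in both lines numbered 9 (ORC1, CDT1, MCM2, MCM7, CDC45, RFC4, RFC5, LIG1 and TIMELESS), and 4 of these 9 (MCM2, MCM7, RFC5 and TIMELESS) fell further in MOLM-14 by that test. Another 30 were called lower in MOLM-14 and not called in MV4-11, and for 26 of the 30 the difference passed. ORC6, POLD1, RPA2 and CHAF1B were the 4 that did not pass it. For these overlaps between the lines no share of all probe sets was taken. Each change is measured from the DMSO level of its own line.

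For SAHA alone 19 members had a lower response in MOLM-14 and 0 a higher one, compared with 0.63% and 0.599% of all probe sets, and all 19 were among the 32. The lowest were MCM10 (-1.44, adjusted p = 0.00384), MCM4 (-1.36, adjusted p = 0.00234), GINS1 (-1.29, adjusted p = 0.00322) and CDC6 (-1.27, adjusted p = 0.00958). This count was 5 with each array centred on its median, 30 with dim probe sets left out and 31 with limma-trend. It was 12 without MV4-11 DMSO replicate 1, MV4-11 SAHA replicate 2 or MOLM-14 DMSO replicate 1, 11 without MOLM-14 DMSO replicate 2, and 10 without MV4-11 SAHA replicate 1 or MOLM-14 SAHA replicate 2 or 3. Shares of all probe sets were not taken under these alternatives or for the overlap with the 32. The response to ABT-869 differed for 0 members by limma, compared with 0.157% lower and 0.194% higher of all probe sets. At an unadjusted p below 0.05, 8 were lower and 3 higher, with no share of all probe sets taken at that p.

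**Figure D4:**
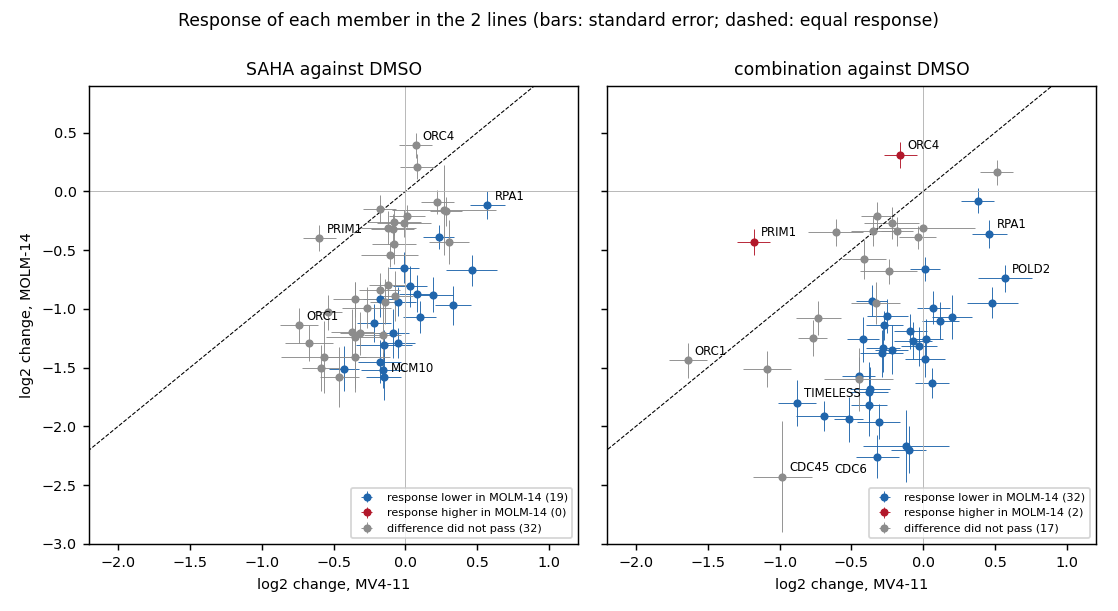
Log2 change against DMSO of each member in MV4-11 (horizontal axis) and MOLM-14 (vertical axis) for SAHA (left) and the combination (right), with standard errors as bars, the dashed line marking equal responses and colour marking the test of the difference. Most points lie under the dashed line (47 of 51 for SAHA and 45 of 51 for the combination), and PRIM1 and ORC4 lie above it.

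Other genes of S phase control, in 3 lists beside the members, moved in part with them. Of 13 E2F and pocket protein genes, 5 fell and 0 rose in MOLM-14 with the combination, compared with 2.8% and 3.15% of all probe sets. Among the 5, E2F2 (-1.38) and E2F7 (-1.37) had the lowest changes and RBL1 (-1.31) and TFDP1 (-0.62) the highest. With SAHA alone 4 fell (2.58% of all probe sets), E2F2 (-1.38) and E2F7 (-1.09) most and RBL1 (-1.08) and E2F1 (-0.74) least. E2F1 and E2F2 activate transcription, E2F7 and the pocket protein RBL1 repress it, and TFDP1 is the usual partner of E2F factors. In MV4-11, 0 fell and 2 rose with either treatment: the repressor E2F8 (1.03 with SAHA, 0.63 with the combination) and the partner TFDP2 (0.78 and 0.92). Of all probe sets there, 0.996% fell and 1.47% rose with SAHA, and 4.05% fell and 4.89% rose with the combination.

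Of 9 measured S phase kinase and checkpoint genes, 5 fell in MOLM-14 with the combination, compared with 2.8% of all probe sets. They ran from CCNE2 (-1.92) and CCNE1 (-1.49), which encode E cyclins, to CCNA2 (-0.83) and their kinase CDK2 (-0.59). With SAHA 4 fell (2.58% of all probe sets): CCNE2 (-1.16), CHEK1 (-1.13), CCNA2 (-0.73) and CDK2 (-0.56). In MV4-11 the E cyclins went the other way. CCNE2 rose with each treatment (1.0 with ABT-869, 0.68 with SAHA, 0.76 with the combination). With the combination CCNE1 (0.79) and the checkpoint kinase ATR (0.88) rose while 4 fell, the mitotic kinase CDK1 (-1.30) and CCNA2 (-1.05) most. Of all MV4-11 probe sets, 4.89% rose and 4.05% fell with the combination, while 0.372% rose with ABT-869 and 1.47% with SAHA. The line difference passed for CCNE2 (-2.67, adjusted p = 5.4e-06), CCNE1 (-2.27, adjusted p = 0.000124) and CDK1 (1.33, adjusted p = 0.00386).

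Of 22 further replication genes measured, 11 fell and 1 rose in MOLM-14 with the combination, compared with 2.8% and 3.15% of all probe sets. DNA2 (a nuclease and helicase, -1.52) and DSCC1 (a subunit of an alternative clamp loader, -1.51) were lowest, POLE4 fell by 0.62, and POLD4, the small subunit of polymerase delta, rose by 0.51. With SAHA 10 fell (2.58% of all probe sets), from DNA2 (-1.56) and MTBP (-1.48) to TOPBP1 (-0.73) and MCMBP (-0.44). In MV4-11 4 fell with the combination, TOP2A (topoisomerase II, -1.62) and TICRR (a helicase loading factor, -1.19) most, and RNASEH2C rose (0.81), compared with 4.05% and 4.89% of all probe sets. With SAHA MCM9 fell (-0.84) and RNASEH2C rose (0.65), compared with 0.996% and 1.47% of all probe sets.

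The E2F letters were set beside the changes, as a description with no test. In MOLM-14 with the combination 21 of the 22 members with the letters fell (median -1.33) and 14 of the 23 without them fell (median -0.95). With SAHA these counts were 20 of 22 (median -1.02) and 11 of 23 (median -0.54). In MV4-11 with the combination 4 of 22 and 6 of 23 fell. CDC45, ORC1 and PRIM1 had windows without the letters. No match says only that these letters are not in the window. The letters CCAAT, known as the NF-Y motif, stood in a window of 26 of 45 members (57.8%) and of 41.7% of all measured genes with a window. The 6 members without a window here were MCM4, MCM5, POLD3, GINS4, RPA2 and RPA3.

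**Figure D5:**
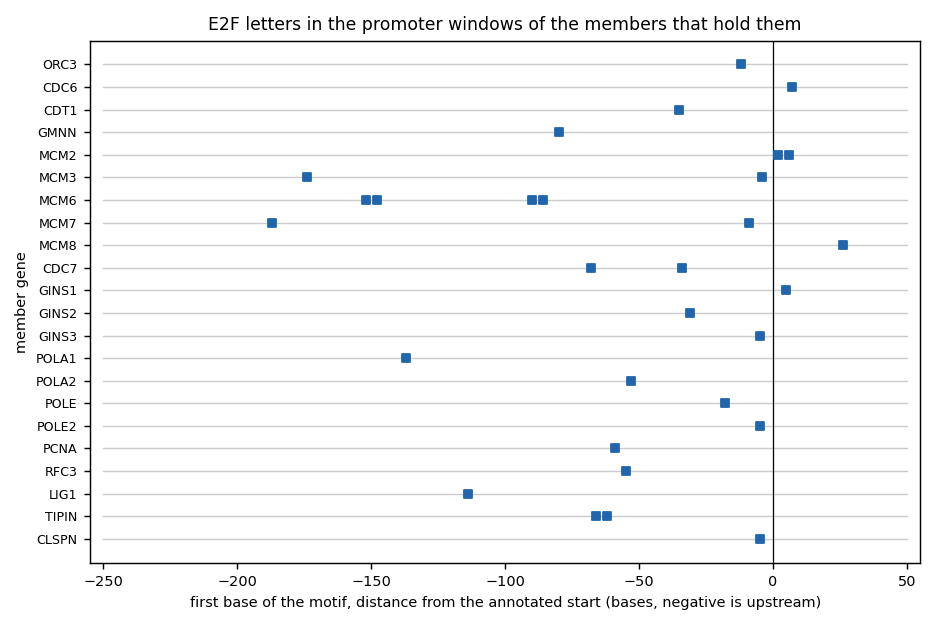
Position of each E2F match (squares) in the windows of the 22 members that hold one, as the distance in bases from the annotated start (0, negative is upstream), with grey lines for the window from 250 bases before to 50 after it. MCM6 holds 4 matches in 2 overlapping pairs, and most of the other members hold 1.

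Further probe sets of the same genes were measured for 25 members, 36 probe sets in all that lay above the median signal. In MOLM-14 with the combination 32 of the 36 had the sign of the probe set used. Where that one was called, 26 of 27 further probe sets had the same sign, 22 were called in the same direction and 0 in the opposite one. In MV4-11 with the combination 7 of 8 had the same sign and 2 were called. Of the probe sets used, 4 (for ORC6, CDT1, RFC1 and CHAF1A) carry the suffix of sets that may cross-hybridise.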

How the data were processed

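Total RNA of 24 samples was measured on Affymetrix U133 Plus 2.0 arrays, 3 in each of 8 groups given by the labels. The deposited values are linear signal intensities, 1 per probe set, that the authors had scaled so that the trimmed mean of every array (2% removed at each end) is the same, by software not given in the sources used here. Signals under 1 (0.209% of values) were raised to 1 and log2 of the deposited intensity was taken. Of 54675 probe sets, 62 controls were left out and 54613 were tested with limma 3.58.1 in R 4.3.3, in 1 fit of 12 arrays per line, and with all 24 arrays for differences between lines. Benjamini-Hochberg adjustment ran over all 54613 probe sets, a change was called at an adjusted p below 0.05, and n was 3 per group throughout. With 3 arrays against 3, the smallest p of an exact permutation test is 0.1, so none was used. The study's methods name a 2-fold rule and no test. That rule alone was not run. An alternative asked for a 2-fold change on top of the adjusted p.

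GEO's platform annotation named 1 gene for 41091 probe sets, of which 41037 were updated by gene identifier. A member's probe set was the one with the highest mean log2 signal. The members, the other gene lists and the tests were chosen with earlier results of these data known. Given on every array were the members with the lowest and the highest change with the combination in MOLM-14 in each class and every member called higher than DMSO. Of the other genes the 2 lowest and the 2 highest called of each list were named. PRIM1 was added after its values were seen, as were the single log2 values of further members and of genes that completed a short list. Named biological replicates are not said to be separate cultures, so the p-values measure the spread between these samples. The number of arrays limits the precision. The scripts were tested on simulated data, with changes given in the combination arrays to 200 of 54613 probe sets, all above the median signal. Of true log2 changes of -1, 45% were called in each line, and of -2, 80% in MV4-11 and 82% in MOLM-14. The real comparisons called many more probe sets (1530 lower in MOLM-14 and 2211 lower in MV4-11 with the combination). The adjusted threshold was therefore stricter in the simulation, and its shares do not give the power for the members. A member that did not pass may still have changed. Alternatives were quantile normalization, centring, a higher floor, leaving out dim probe sets, limma-trend, a replicate block, the second probe set, the added 2-fold limit, 1 fit over 24 arrays and leaving out arrays.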

Additional observations from a re-analysis of the deposited data

Results flagged for a closer look

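By the interaction term of the 24-array limma model, the response to the combination differed between MOLM-14 and MV4-11 for 34 members, 32 of them lower in MOLM-14 and 2 higher (ORC4 and PRIM1). The response to SAHA alone differed for 19 members, all 19 lower in MOLM-14. The member with the lowest difference was MCM10 under both treatments (-2.10 with the combination and -1.44 with SAHA), followed by CLSPN (-2.05) with the combination and MCM4 (-1.36) with SAHA. The MPO log2 change differed in the same direction (-1.97 with the combination, -2.32 with SAHA), and its part in the members' differences was not tested.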

How the results depend on the processing

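Under no alternative did a count of members change direction. The counts given here moved by over 1.5 times or between 0 and more, as members higher and members lower. Apart from the added 2-fold limit, shares of all probe sets were not taken under the alternatives, so these counts have none beside them. Centring each array on its median moved the median of all probe sets for SAHA in MOLM-14 from -0.14 to 0.11 and that of the members from -0.92 to -0.67.

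With centring, ABT-869 in MV4-11 gave 0 higher, SAHA 0 higher and 0 lower, the combination 0 higher and 6 lower against DMSO, 0 lower against SAHA, and 0 higher and 4 lower against ABT-869. SAHA in MOLM-14 gave 1 higher, the SAHA response 5 lower in MOLM-14 and the combination response 0 higher. Quantile normalization gave 0 higher for ABT-869 in MV4-11.

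With signals under 32 raised to 32, MV4-11 gave 14 higher and 2 lower for ABT-869, 3 and 7 for SAHA, 17 lower for the combination, 1 and 7 against SAHA, and 7 lower for additivity. With dim probe sets left out these were 13 and 1, 7 lower, 5 and 18, 1 and 4, and 4 lower. With limma-trend they were 13 and 2, 2 and 7, 5 and 17, 2 and 4, and 9 lower, with 28 lower against ABT-869. In all 3 settings 1 member was higher in MOLM-14 with SAHA, with the combination and against ABT-869, and 1 had a lower ABT-869 response. The first 2 settings also gave 1 lower DMSO level. The SAHA response was lower for 30 members without dim probe sets and 31 with limma-trend, which also gave 2 lower for the combination against SAHA in MOLM-14.

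Pairs of arrays with the same replicate number had deviations that correlated with r from -0.19 to 0.33, and not every pair passed 0.1, so the numbers were not taken to pair the samples. The 6 pairs of MOLM-14 replicate 1 were all positive (0.04 to 0.18), and 13 of 24 arrays correlated best with their own number, where 1 in 3 would if the numbers carried nothing. With the replicate number as a block MV4-11 gave 0 higher for ABT-869, 0 and 0 for SAHA, 0 higher for the combination, 0 lower against SAHA, and 0 higher and 8 lower against ABT-869.

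With the second probe set MV4-11 gave 0 higher for ABT-869, SAHA and the combination, 2 lower against SAHA, and 0 higher and 11 lower against ABT-869, and the DMSO level was higher for 18 members and lower for 1. With calls limited to an adjusted p below 0.05 and at least a 2-fold change, MV4-11 gave 0 for ABT-869, 0 and 0 for SAHA, 0 and 3 for the combination, 0 against SAHA, and 0 and 2 against ABT-869. It left 19 lower with SAHA in MOLM-14, 5 with a higher DMSO level, and 11 lower SAHA and 0 higher combination responses. In 1 fit over 24 arrays MV4-11 gave 6 and 1 for ABT-869, 5 lower for SAHA, 5 higher for the combination, and 2 and 3 against SAHA, and MOLM-14 gave 1 higher for SAHA, 1 lower against SAHA and 1 higher against ABT-869.

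All 24 arrays passed the planned limit for standing apart, so that alternative gave no value. On bright probe sets 5 arrays did, a choice made after seeing the data, and without them MV4-11 gave 0 for ABT-869, 0 and 0 for SAHA, 0 and 4 for the combination, 0 against SAHA, and 0 and 0 against ABT-869, with 1 higher combination response. That leaves 1 combination array in MV4-11, assumed to vary like the other groups.

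Leaving out 1 array at a time, lower members ranged in MOLM-14 from 14 to 33 with SAHA, from 35 to 39 with the combination and from 38 to 42 against ABT-869. In MV4-11 they ranged from 0 to 4 with SAHA, 5 to 9 with the combination, 0 to 1 against SAHA and 7 to 16 against ABT-869, and higher members from 0 to 1 with ABT-869 and with SAHA, 0 to 2 with the combination and 0 to 0 against ABT-869. Between lines the range was 10 to 25 for the lower SAHA response, 29 to 33 lower and 1 to 2 higher for the combination response, and 21 to 30 for the DMSO level. The cause of these shifts was not tested.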
